A study of Mus musculus with 6 samples.

Results

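Retinol metabolism was examined in epidermal keratinocytes lacking the Mediator subunit Med1, through 9 genes: Adh7, Adh1, Aldh1a1, Aldh1a3, Rdh10, Dhrs9, Cyp26b1, Crabp2 and Lrat. All probes carrying 1 of these symbols were taken, which gave 12 probes of the 25697 on a 1-colour Illumina bead array and 9 of its 16593 named genes. The genes were proposed with the CON and KO values known, so their values in this contrast are given as a description, without a p-value. The 3 CON arrays held cells of mice with floxed Med1 alleles (fl/fl) and no Cre, and the 3 KO arrays held cells of littermates in which Cre under the keratin 14 (Krt14) promoter had excised Med1, so deletion was limited to cells that had expressed keratin 14. All mice were of C57BL6 background and 10 wk old, and the keratinocytes were released from trypsin-separated epidermis. Per the design text of the series each group came from the skins of 2 mice, and how these were divided over the 3 arrays is not stated. The 3 arrays of a group are thus not 3 independent mice, and the n in the study's text differs from the number of arrays. SDs and p-values below reflect array-to-array spread that may be partly technical. By the study's account CON skin was in telogen and KO skin had moved towards anagen, so hair cycle phase and genotype cannot be told apart.

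Retinol (vitamin A) reaches the epidermis from blood and is either stored as a fatty acid ester or oxidized in steps, first to retinal and then to retinoic acid. Alcohol dehydrogenases and short-chain dehydrogenases catalyse the first, reversible step, and retinal dehydrogenases of the Aldh1a family catalyse the second. Retinoic acid is carried to nuclear receptors that control transcription, and it is removed by Cyp26 enzymes. In skin it is known to influence keratinocyte differentiation, sebaceous glands and the hair cycle.

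Adh7 (alcohol dehydrogenase class IV) and Adh1 (class I) both oxidize retinol and lie next to each other among the coding genes of chromosome 3, and their levels differed between KO and CON in opposite directions. The RefSeq sequence of the 250 bases before each start site (GRCm38.p6, plus strand) is shown so that both upstream regions can be read beside those values. The Adh7 stretch is at chr3:138217523-138217772 and the Adh1 stretch at chr3:138277335-138277584. Capitals mark a nuclear receptor half-site.
Adh7: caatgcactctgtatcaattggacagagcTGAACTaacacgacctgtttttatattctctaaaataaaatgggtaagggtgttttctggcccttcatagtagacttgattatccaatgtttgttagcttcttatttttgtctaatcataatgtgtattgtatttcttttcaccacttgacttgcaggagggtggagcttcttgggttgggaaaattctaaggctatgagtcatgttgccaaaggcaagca
Adh1: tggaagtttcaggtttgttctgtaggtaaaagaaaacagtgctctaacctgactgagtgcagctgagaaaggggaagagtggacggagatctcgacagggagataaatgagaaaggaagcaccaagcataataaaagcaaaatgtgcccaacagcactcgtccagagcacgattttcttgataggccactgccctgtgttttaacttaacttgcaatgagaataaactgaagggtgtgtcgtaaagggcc
The windows searched ran on to 50 bases after the start site and were found for 6 of the 9 genes (7 windows). Both strands were searched for the half-sites AGGTCA and AGTTCA and for the retinoic acid response element as a direct repeat with a spacing of 1, 2 or 5 bases, whose matches contain half-sites. The Adh7 window held 1 AGTTCA on the minus strand, beginning 221 bases before the start site, and the Adh1 window held no match. A second half-site, AGGTCA, lay 88 bases before the start of Dhrs9, and the windows of Aldh1a1, Cyp26b1 and Lrat held no match. Of 32544 windows of all genes, 16.2% held AGGTCA and 14.0% held AGTTCA. The direct repeats were found in 0.224%, 0.270% and 0.0983% of all windows for spacings of 1, 2 and 5, and in none of the 7 windows. A match describes the letters only.

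The arrays were of similar quality, with a median raw intensity of 105.7 to 117.3 and 9866 to 10636 detected probes (detection p below 0.01). Arrays of one group correlated at 0.989 to 0.993 over the tested probes and arrays of different groups at 0.965 to 0.968. Levels below are background-corrected, quantile-normalized log2 intensities, and changes are KO minus CON ± SE from limma. Med1 itself was 1.95-fold lower in KO on its 1 tested probe (-0.96 ± 0.15, limma adjusted p = 0.00179), whose place relative to the deleted exons is not known here, and its other 3 probes were detected on no array. The basal keratinocyte markers Krt5, Krt14 and Krt15 were detected on all 6 arrays. The fibroblast collagens Col1a1, Col1a2 and Col3a1 and the adipocyte genes Adipoq and Plin1 were detected on none. Other markers of the fibroblast list, Dcn, Fbln1 and Vim, were detected on all 6 arrays. Dcn (-1.23 ± 0.16, limma adjusted p = 0.000851) and Fbln1 (-0.49 ± 0.15, limma adjusted p = 0.0413) were lower in KO, and Vim (-0.18 ± 0.13) did not pass. The second tested probe of Fbln1 changed by -0.22 ± 0.18 and did not pass either (limma adjusted p = 0.403).

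Of the 9 retinoid genes, 3 were detected on at least 3 arrays and tested (Adh7, Adh1 and Crabp2). Adh7 was lower in KO on every array, and Adh1 and Crabp2 were higher on every array. Over all 7461 tested genes 14.7% were called lower at an adjusted p below 0.05, 14.1% higher and 28.8% either (27.4% of the 10386 tested probes). The 9 genes were proposed from this contrast, so nothing is read from these shares for them. Another 4 genes were detected on no array (Aldh1a1, Aldh1a3, Dhrs9 and Cyp26b1), and 2 on a single array (Rdh10 and Lrat).

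Adh7 was bright in CON and not above the negative control beads in KO. Its raw intensity was 1478.1, 1258.5 and 1215.4 on the CON arrays and 95.8, 108.2 and 102.1 on the KO arrays. Detection p was 0 on every CON array and 0.738, 0.179 and 0.489 on the KO arrays. After normalization the level was 10.19, 10.26 and 10.32 in CON and 4.31, 4.53 and 4.38 in KO (log2). The lowest CON array thus lay far above the highest KO array, and the arrays within each group lay close together. The means were 10.26 ± 0.07 and 4.40 ± 0.11 (SD, n = 3 each), with a fitted change of -5.85 ± 0.10. Since no KO array detected the probe, that fitted change is not a measured size. On the background-corrected scale Adh7 was at least 32.1-fold lower in KO, with the dimmest detected signal of the KO arrays in place of its own. Both values depend on the background correction: without it the change was -3.68, or 12.8-fold. In these bulk samples fewer cells of a type and less RNA per cell cannot be told apart.

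Adh1 was higher in KO on both of its probes. The first probe had a level of 8.81, 9.06 and 9.20 in CON and 9.95, 9.84 and 9.83 in KO (log2). The highest CON array lay below the lowest KO array, and CON was the more variable group. The means were 9.02 ± 0.20 and 9.87 ± 0.07 (SD, n = 3 each), a change of 0.85 ± 0.12 or 1.80-fold, with a 95% interval of 0.57 to 1.12. The second probe was dimmer, at 7.36, 7.58 and 7.16 in CON against 8.31, 8.47 and 8.25 in KO. Its groups did not overlap either, and its change of 0.97 ± 0.13 (1.97-fold) lay inside the interval of the first. Crabp2, the carrier that hands retinoic acid to nuclear receptors, had a level of 7.98, 8.13 and 8.18 in CON and 8.88, 8.84 and 8.74 in KO. All 3 KO arrays were above all 3 CON arrays, by 0.72 ± 0.10 on average (1.65-fold). Among all tested genes 45.2% had groups that did not overlap, so separation of the arrays is common in this contrast.

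**Figure D1:**
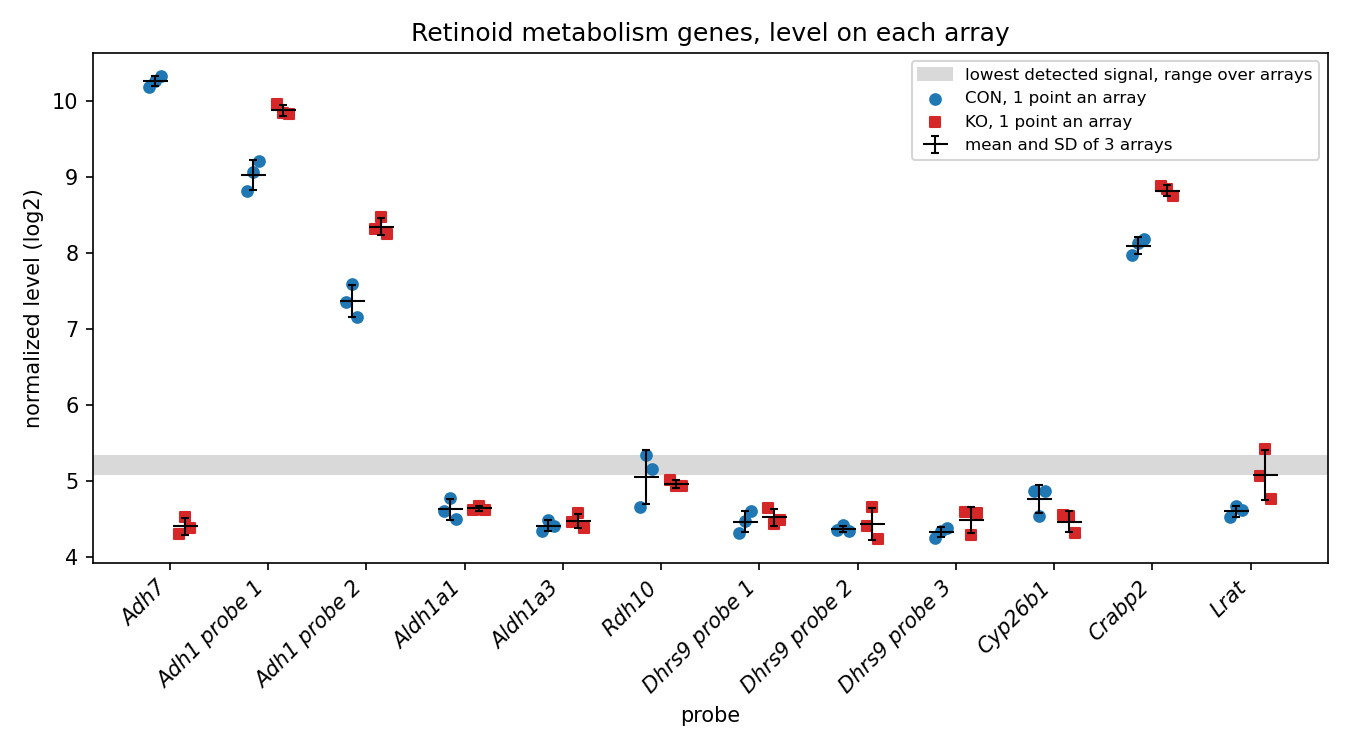
Normalized log2 level of each of the 12 probes (x axis) on each array, with 1 point an array (blue circles CON, red squares KO) and black bars for the mean and SD of 3 arrays. The grey band spans the lowest detected signal of the 6 arrays, 5.09 to 5.33, and Adh7 goes from about 10.26 in CON to below the band in KO, while Adh1 and Crabp2 lie above it in both groups and no array of the other probes exceeds 5.42.

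The remaining 6 genes were at or near background and were not tested. Lrat, the enzyme that esterifies retinol for storage, was at 4.52, 4.66 and 4.61 in CON and 5.06, 5.42 and 4.76 in KO. Each KO array was above each CON array, but only KO replicate 2 was detected (detection p of 0.00877), so no fold change is given. Rdh10, a short-chain dehydrogenase that oxidizes retinol, was at 4.66, 5.34 and 5.15 in CON and 5.01, 4.93 and 4.94 in KO. These groups overlapped, and CON replicate 2 was the array with detection (detection p of 0.00877). Cyp26b1, which clears retinoic acid, was at 4.87, 4.54 and 4.86 in CON and 4.55, 4.53 and 4.31 in KO, with overlapping groups and a lowest detection p of 0.0251. The retinal dehydrogenases Aldh1a1 and Aldh1a3, which make retinoic acid, had lowest detection p-values of 0.0514 and 0.137. The 3 probes of Dhrs9, another short-chain retinol dehydrogenase, had lowest values of 0.099, 0.0877 and 0.118. For these 6 genes a low transcript level and a weak probe cannot be told apart.

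The rest of the retinoid pathway was described from a list of 53 other genes, of which 49 were on the array and 20 were tested. In KO 12 were higher, 2 were lower and 6 did not pass the test, where 14.1% of all tested genes were higher and 14.7% lower. The median change of the 20 was 0.53 on the log2 scale, against -0.00155 over all tested genes. The list was chosen with earlier results of these data known, so these counts and this median are a description only. Of the 12, Rbp2, Dgat1, Awat2 and Dhrs4 passed the detection filter through their KO arrays, and 8 were called when detection on all 6 arrays was required. A further 26 genes were detected on no array, and 3 on too few. Of these 3, Stra6, the membrane receptor for retinol uptake, was at 5.39, 5.33 and 5.19 in CON and 4.46, 4.61 and 4.74 in KO, detected on 1 and 0 arrays. Crabp1, a retinoic acid carrier related to Crabp2, was at 5.06, 5.34 and 4.91 in CON and 4.28, 4.38 and 4.25 in KO, also detected on 1 and 0 arrays. All KO arrays of both genes thus lay below all CON arrays. With a looser filter (detection p below 0.05 on at least 2 arrays) both were called lower, Stra6 at -0.70 ± 0.12 (limma adjusted p = 0.00344) and Crabp1 at -0.80 ± 0.13 (limma adjusted p = 0.003), which made 4 lower genes. Aldh1a2, the third, had overlapping groups.

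Genes of retinoid uptake, storage and ester turnover were higher in KO in 5 of 5 tested cases, out of 15 on the array, where 14.1% of all tested genes were higher. Stra6, of the same list, lay in the opposite direction and entered only with the looser filter. Lpl, a lipase that releases fatty acids and also frees retinol from its circulating esters, had a level of 8.04, 8.02 and 8.20 in CON and 10.32, 10.21 and 10.28 in KO. The groups lay far apart, with a rise of 2.19 ± 0.10 (4.55-fold, limma adjusted p = 4.18e-06). Awat2, an acyltransferase of wax ester synthesis that also esterifies retinol, was detected on 0 CON and 3 KO arrays. On the background-corrected scale Awat2 was at least 1.77-fold higher in KO (limma adjusted p = 0.000372). Rbp2, a cellular retinol-binding protein, rose by 1.22 ± 0.20 (limma adjusted p = 0.00277). Dgat1, another acyltransferase that accepts retinol, rose by 0.96 ± 0.13 (limma adjusted p = 0.00121), and the lipase Pnpla2 rose by 0.65 ± 0.09 (limma adjusted p = 0.00151). Rbp2 and Dgat1 were detected on 2 of the 3 CON arrays, and together with Awat2 they passed the filter through their KO arrays. Sebocyte markers moved in the same direction: 6 of the 8 listed were tested, all 6 were higher in KO, and their summed linear level was 1978 to 2263 in CON and 3609 to 3889 in KO. Elovl3 (0 CON arrays), Mc5r (2) and Plin2 (2) passed the detection filter through KO, which favours higher calls in this count. Of the defining sebocyte genes Fasn was detected on no array, and the part of these cells in the values above was not tested.

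Among the enzymes that interconvert retinol and retinal, 9 of 16 on the array were tested, of which 6 were higher and 0 lower. Over all tested genes 14.1% were higher and 14.7% lower. Rdh9, a short-chain dehydrogenase whose probe may also bind its close paralogues, was at 7.34, 7.43 and 7.30 in CON and 8.71, 8.64 and 8.79 in KO. Its arrays separated widely and it rose by 1.36 ± 0.10 (2.56-fold, limma adjusted p = 3.59e-05). Dhrs7 rose on each of its 3 probes, by 1.23 to 1.37 (limma adjusted p at most 0.000168). Rdh11, which reduces retinal back to retinol with NADPH, rose by 0.94 ± 0.11 (1.92-fold, limma adjusted p = 0.00058). Smaller rises were found for Dhrs4 (0.59 ± 0.12), Sdr16c5, an epidermal retinol dehydrogenase (0.47 ± 0.12), and Rdh12, also a retinal reductase (0.40 ± 0.10), with limma adjusted p of 0.00685, 0.0209 and 0.0157. Dhrs4 was detected on 1 of 3 CON arrays. The calls of Sdr16c5 and Rdh12 did not withstand the loss of single arrays: Sdr16c5 had a limma adjusted p of 0.0597, 0.0515, 0.0574 and 0.0679 without CON replicate 2, CON replicate 3, KO replicate 2 and KO replicate 3, and Rdh12 one of 0.0524 and 0.0666 without CON replicate 3 and KO replicate 2. Adh5, the class III alcohol dehydrogenase, was at 7.97 ± 0.09 in CON and 7.99 ± 0.10 in KO, a change of 0.03 ± 0.10 with a 95% interval of -0.20 to 0.25.

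For the step from retinal to retinoic acid, 1 of 6 listed genes was tested. This was Aldh1a7, a close paralogue of Aldh1a1, at 5.89 ± 0.20 in CON and 5.90 ± 0.08 in KO (change 0.01 ± 0.12, limma adjusted p = 0.961). For clearance, Cyp2s1, a cytochrome P450 able to metabolize retinoic acid, was lower in KO (-0.51 ± 0.14, limma adjusted p = 0.0247), and Cyp26a1 was detected on no array. The Cyp2s1 call ended without CON replicate 2, KO replicate 2 or KO replicate 3, with a limma adjusted p of 0.051, 0.0778 and 0.0807.

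Of the 9 listed carriers and receptors beside Crabp2, 4 were tested. Fabp5, a fatty acid carrier that also binds retinoic acid, was at 5.89, 5.77 and 5.70 in CON and 7.17, 7.16 and 7.29 in KO. It rose by 1.42 ± 0.10 (2.68-fold, limma adjusted p = 3.3e-05), so it and Crabp2 were both higher in KO. The other Fabp5 probe was detected on no array, so this rise rests on 1 probe. Without background correction the Fabp5 change was 0.73, and those of the dim genes Rbp2, Dgat1, Awat2 and Dhrs4 were likewise smaller by more than 1.5 times. Rarg, the main retinoic acid receptor of epidermis, was at 9.83, 10.00 and 9.81 in CON and 9.27, 9.48 and 9.42 in KO. It fell by 0.49 on the log2 scale (SE 0.10, limma adjusted p = 0.00977), while its second tested probe changed by -0.22 ± 0.09 and did not pass (limma adjusted p = 0.114). Its partner receptors Rxra (-0.02 ± 0.20) and Rxrb (-0.21 ± 0.10) did not pass the test, and Rara, Rarb and Rxrg were detected on no array.

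**Figure D2:**
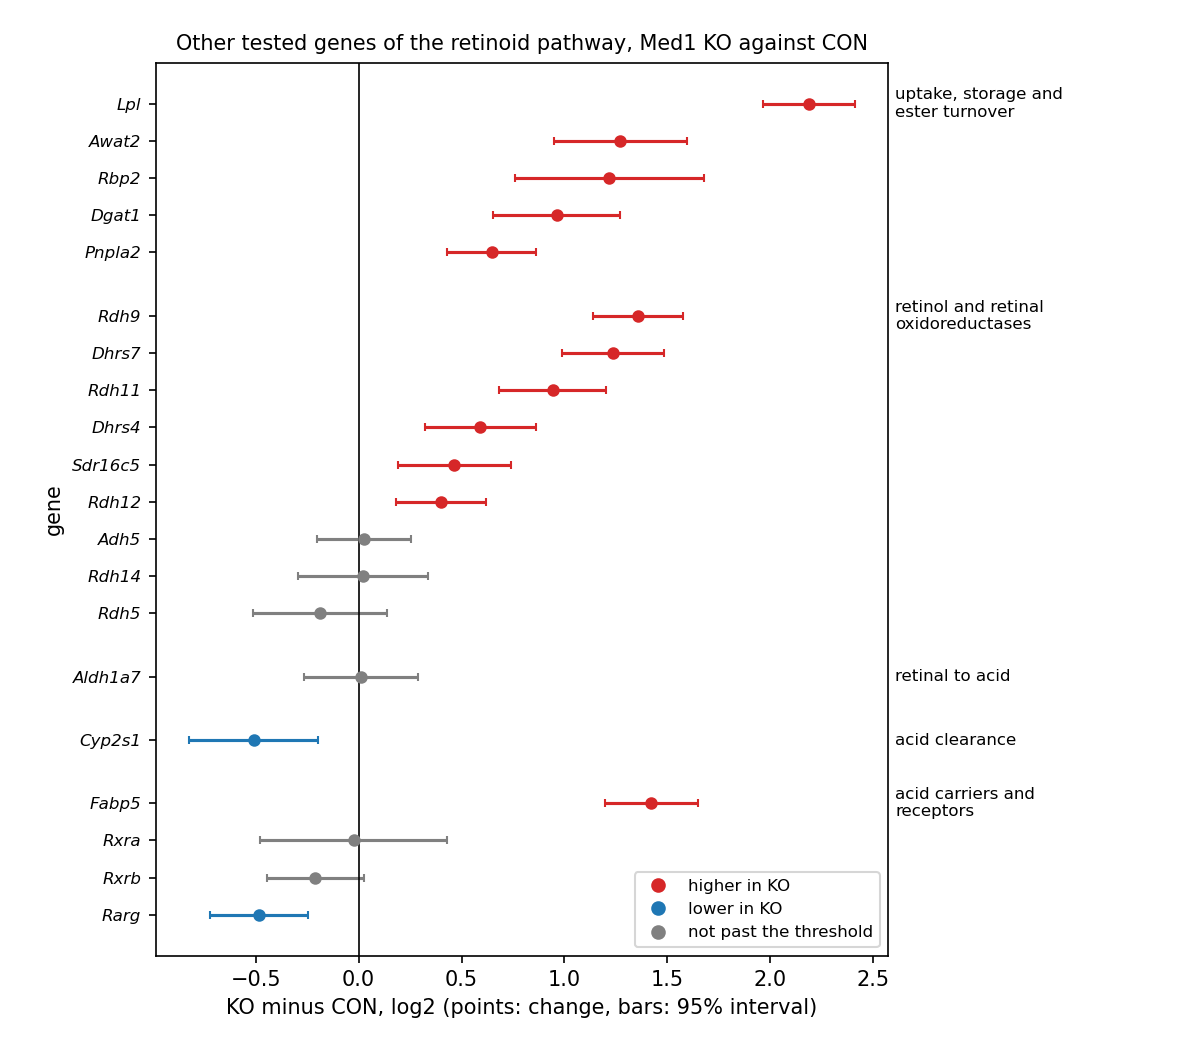
Change in KO against CON (log2, x axis) of the 20 tested retinoid pathway genes outside the 9, grouped by role, with points for the fitted change and bars for its 95% interval. Red marks the 12 genes higher in KO, blue the 2 lower and grey the 6 not past the adjusted threshold, and all 5 uptake and storage genes lie to the right of 0.

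Genes known to respond to retinoic acid were listed separately. The list mixes genes that retinoic acid induces, such as Tgm2 and Hbegf, with genes that it represses in cultured human keratinocytes, such as Krt1, Lor and Tgm1, so its counts have no single direction. Of 20 listed, 16 were on the array and 7 were tested. In KO 4 were higher, 0 were lower and 3 did not pass, where 28.8% of all tested genes were called. Stra6, also on this list, was called lower with the looser filter (values above), which made 5 called. Tgm1, the transglutaminase that crosslinks the cornified envelope, rose by 1.43 ± 0.12 (2.69-fold, limma adjusted p = 7.34e-05) and Hbegf, a growth factor of the EGF family, by 1.24 ± 0.10 (2.36-fold, limma adjusted p = 5.97e-05). Ivl (involucrin), a cornified envelope protein, rose by 0.58 ± 0.10 (limma adjusted p = 0.00389). Tgm2, a tissue transglutaminase induced by retinoic acid in many cells, rose by 0.81 ± 0.19 (limma adjusted p = 0.0153). It was detected on 1 of 3 CON arrays, and its call ended without CON replicate 1 (limma adjusted p = 0.0527) or KO replicate 3 (0.0569). Krt1 (-0.27 ± 0.13), Krt10 (-0.03 ± 0.09) and Lor (0.05 ± 0.12), which mark differentiating keratinocytes, did not pass. Without background correction the changes were 0.84 for Tgm1, 0.82 for Hbegf and 0.27 for Tgm2. The direct targets Rarb, Cyp26a1 and Dhrs3 were detected on no array, so this list carries no value for them. Tgm1, Ivl, Krt1, Krt10 and Lor are also genes of epidermal differentiation. Suprabasal markers had a summed linear level of 38480 to 39650 in CON and 37040 to 39430 in KO. Krt10, at 14.52 in CON and 14.49 in KO (log2), weighs most in these sums. Its normalized level was the same, 14.56, on CON replicates 2 and 3 and KO replicate 1. Such a bright probe had little room to change after quantile normalization, so the sums say little about these cells.

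In the alcohol and aldehyde dehydrogenase families, 11 of 20 other members on the array were tested, with 3 higher, 1 lower and 7 not past the test. That is 4 called of 11, where 28.8% of all tested genes were called. Aldh5a1, a mitochondrial enzyme of GABA breakdown, rose by 1.23 ± 0.10 (2.34-fold, limma adjusted p = 8.12e-05). Aldh1l1, of folate metabolism, rose by 0.70 ± 0.11 (limma adjusted p = 0.00232), with its other tested probes at 0.49 (limma adjusted p = 0.0246) and 0.24 (0.225). It was detected on 2 of 3 CON arrays and passed the filter through KO. Aldh18a1, of proline synthesis, rose by 0.45 ± 0.11 (limma adjusted p = 0.0152), a call that ended without KO replicate 1 (0.0548) or KO replicate 2 (0.0538). Without background correction the changes of Aldh1l1 and Aldh18a1 were 0.26 each. Aldh4a1, of proline breakdown, fell by 0.57 on the log2 scale (SE 0.09, limma adjusted p = 0.0022). Aldh2 changed by -0.30 ± 0.10 and did not pass (limma adjusted p = 0.0617), and Aldh16a1 and Aldh3a2 changed by -0.25 and 0.19 without passing. The median change of the 11 genes was 0.03, against -0.00155 over all tested genes.

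**Figure D3:**
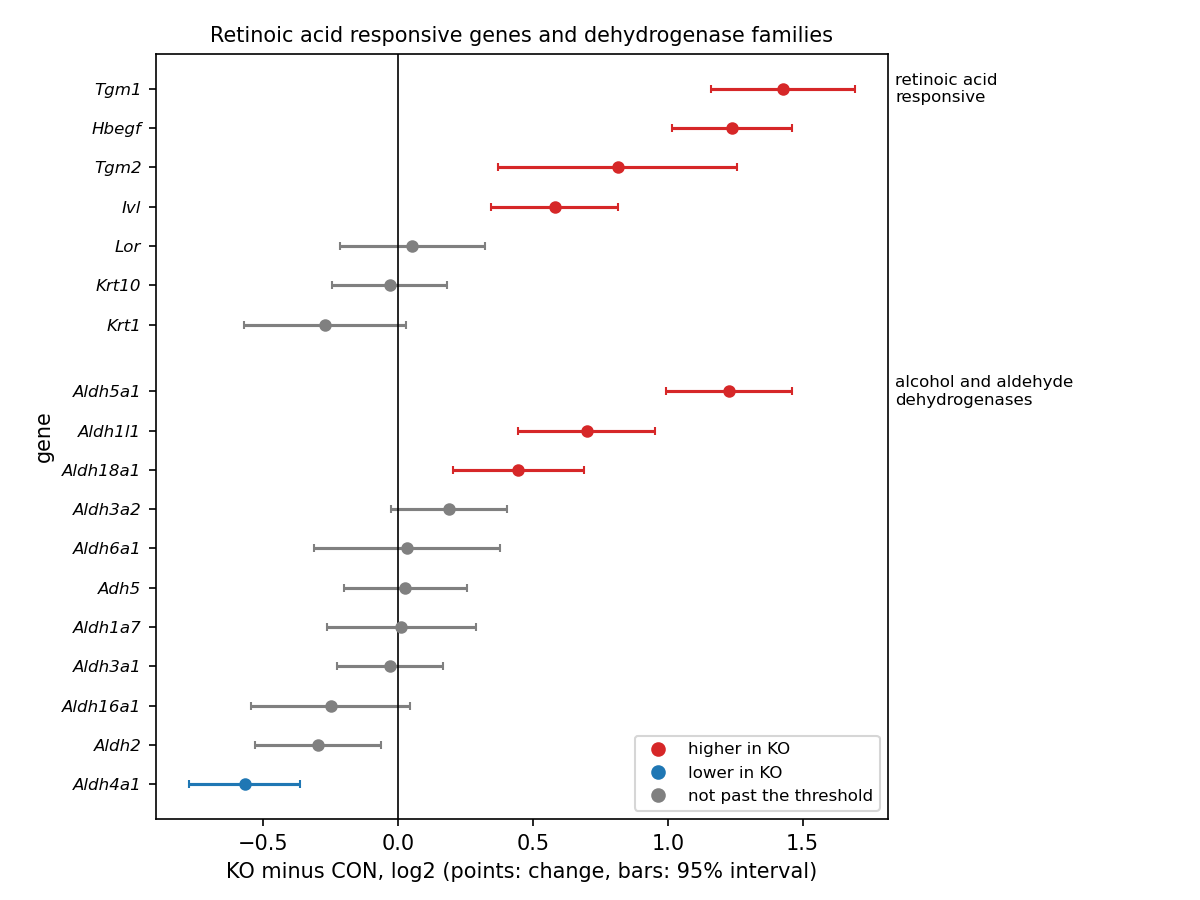
Change in KO against CON (log2, x axis) of the 7 tested retinoic acid responsive genes and the 11 tested alcohol and aldehyde dehydrogenases outside the 9, with 95% intervals as bars. Colours mark genes higher (red), lower (blue) or not past the adjusted threshold (grey); the unadjusted interval of Aldh2 excludes 0 although its adjusted p of 0.0617 does not pass.

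The genes with the array profile most like that of Adh7 were found by the root mean square difference of log2 levels over the 6 arrays, each gene centred on its own mean, among 7458 other tested genes. Levels were not scaled, so this distance depends largely on the size of the fall in KO, a contrast known when Adh7 was chosen. The nearest were Krt24 (1.10), Cyp2g1 (1.13), Gpha2 (1.25), Il31ra (1.29) and Ccn2 (1.33). All had large falls: on the background-corrected scale Krt24 and Cyp2g1 were at least 9.84-fold and 7.40-fold lower in KO. Gpha2, Il31ra and Ccn2 changed by -3.35 ± 0.12, -3.37 ± 0.25 and -3.21 ± 0.09. Krt24, a type I keratin, was at 8.95, 8.50 and 8.19 in CON and 4.39, 5.04 and 4.99 in KO, detected on 3 and 0 arrays. Cyp2g1, a cytochrome P450, was at 7.96, 8.32 and 8.13 in CON and 4.50, 4.48 and 4.61 in KO, also detected on 3 and 0 arrays. Adh7, Krt24 and Cyp2g1 thus shared a level above background in CON alone, whereas Gpha2, Il31ra and Ccn2 stayed detected on all KO arrays. Of the hair follicle bulge markers, among which Krt24 was listed, 5 of 7 tested were lower in KO, where 14.7% of all tested genes were lower. Krt24 (0 KO arrays) and Cd34 (1) passed the detection filter through CON, which favours lower calls in this count. Krt24 was also picked above by its fall, so its call adds nothing. Sox9 (0.03 ± 0.12) and Lhx2 (-0.44 ± 0.15, limma adjusted p = 0.0602) did not pass. The summed linear level of the 7 markers was 3521 to 3546 in CON and 2061 to 2338 in KO. Nfatc1 and Tcf4, at 10.39 and 10.35 in CON (log2), weigh most in these sums. The symbol Tcf4 matched the gene of that name on chromosome 18, not Tcf7l2, which hair follicle work also calls Tcf4. Its lower call and its part of each sum thus do not describe the bulge. Basal keratinocyte markers were also lower for 5 of 7 tested, with sums of 86890 to 91640 in CON and 66570 to 67710 in KO. Among them Krt14 had the same normalized level, 14.73, on all 6 arrays, so it could show no change and adds a constant to each sum. Melanocyte markers were lower for 3 of 4 tested (684.4 to 735.4 against 339.3 to 360.3). The part of these cells in the Adh7 value was not tested. The genes nearest to Adh1 were Ncaph (0.0564), Trp53inp2 (0.0666), Eif4e2 (0.0766), Cenpm (0.0769) and Nccrp1 (0.0840), each within a smaller distance than any gene from Adh7. Because the distance grows with the size of the changes, distances from Adh1 and from Adh7 cannot be compared as degrees of likeness.

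**Figure D4:**
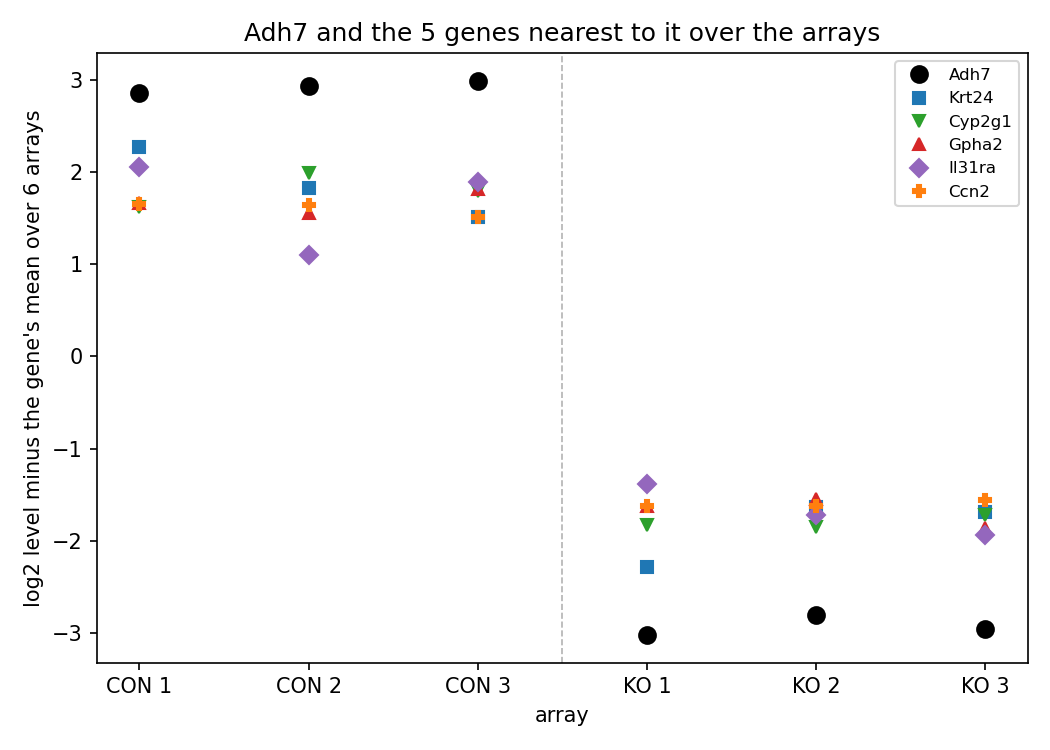
Log2 level of Adh7 (black circles) and of the 5 genes nearest to it, each minus its own mean over the 6 arrays (y axis), on each array (x axis, CON left and KO right of the dashed line). All 6 genes lie above 0 on the 3 CON arrays and below 0 on the 3 KO arrays, and the Adh7 points lie farthest from 0 on every array.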

How the data were processed

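The authors deposited a linear intensity for each probe on each array, summarised in GenomeStudio (version 2011.1 per the submitters' processing notes) and neither background-subtracted nor normalized, with a detection p-value against the negative control beads of that array. A second table deposited by the authors holds intensity values normalized in GenomeStudio; it served as an alternative. No depth exists for arrays, and their number limits the precision. The genes and lists were chosen with earlier results of these data known.

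Intensities were processed by neqc of limma (version 3.58.1, R 4.3.3, offset 16, quantile, log2). The offset pulls changes of dim probes towards 0, but these changes were still larger than without background correction (values below). Probes with a detection p below 0.01 on at least 3 of 6 arrays were tested (10386) in a two-sided limma fit (lmFit, eBayes) without covariates, and p-values were adjusted by Benjamini-Hochberg over them all, with 0.05 as threshold. Of the tested probes 27.4% passed. Where a gene had several tested probes, the brightest on average stood for it. For a probe undetected throughout a group, the fold is a bound on the background-corrected scale only. That group's level was replaced, array by array, by the dimmest detected signal (or the measured level where this was higher) before averaging. The named genes were all probes of the 9 genes, Med1, up to 6 genes a list with the smallest adjusted p, the 5 nearest profiles to Adh7 and to Adh1, and called or undetected markers; Dhrs3, Rara, Rarb, Rxrg, Cyp26a1, Lor and other undetected or uncalled genes were named beside them. Marker lists for suprabasal cells (1 of 5 tested higher), leukocytes (2 higher and 2 lower of 7), fibroblasts (2 of 3 lower), endothelium (0 of 1 called) and adipocytes (0 tested) were run in the same way. Probe symbols came from the platform annotation (23978 probes with 1 symbol, 1719 unnamed, 0 with several), and promoter windows from RefSeq by symbol. The fit was checked on simulated data. Alternatives were other background, scaling, filter, variance and test settings, other probes, the replicate block and leaving out each array. A comparison of member proteins was not run.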

Additional observations from a re-analysis of the deposited data

How the results depend on the processing

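Over all tested probes 2849 passed, against 1689 with median scaling, 2518 with the replicate block and 2046 to 2515 when 1 array was left out; the methods' t-test gave 1901 after Benjamini-Hochberg adjustment and 3597 unadjusted. The 9 genes were chosen from this contrast, so their calls say nothing about stability: 2 were called higher and 1 lower, also with any 1 array left out, and 0 lower when detection on all 6 arrays was required, since Adh7 was then not tested. Other retinoid genes called lower numbered 2, against 1 with median scaling, 1 with the methods' t-test, 4 with the looser filter, which added Stra6 and Crabp1, and 1 to 2 with 1 array left out (1 without CON replicate 2, KO replicate 2 or KO replicate 3). Those called higher numbered 12, with 8 under the filter of all 6 arrays and 10 to 12 with 1 array left out. With 1 array left out, the retinoic acid responsive genes called numbered 3 to 4, as did the dehydrogenases.

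Single-gene calls that ended, beyond those in the report, were with median scaling Rdh12 (limma adjusted p = 0.0986), Sdr16c5 (0.079), Rarg (0.0787) and Aldh18a1 (0.118), with no filter Cyp2s1 (0.0516), and with the methods' test after adjustment Sdr16c5 (0.0757), Cyp2s1 (0.105), Rbp2 (0.0531) and Tgm2 (0.111). Aldh2 passed in 7 settings (limma adjusted p 0.00367 to 0.0495). The cause was not tested. Changes that did not pass changed sign in 17 cases, none of which passed: Aldh3a1 (0.072), Aldh6a1 (-0.019) and Aldh1a7 (-0.035) with median scaling, Rdh14 on its other probe (-0.35), and 7 genes with 1 array left out. The ranges of these were -0.065 to 0.0051 for Krt10, -0.052 to 0.14 for Lor, -0.13 to 0.11 for Rdh14, -0.018 to 0.078 for Adh5, -0.21 to 0.11 for Rxra, -0.10 to 0.11 for Aldh6a1 and -0.090 to 0.11 for Aldh1a7. Without background correction changes of dim probes shrank, as for Fabp5 (0.73), Rbp2 (0.48), Dgat1 (0.37), Awat2 (0.43), Dhrs4 (0.20), Tgm2 (0.27), Tgm1 (0.84), Hbegf (0.82), Aldh1l1 (0.26) and Aldh18a1 (0.26). Same-numbered CON and KO arrays did not deviate together (correlations of -0.0304, 0.0736 and -0.0534), so the block pairs arrays by number only; under it the counts of called retinoid genes, responsive genes and dehydrogenases equalled those without it. Of 703 single-gene values under alternatives, 655 kept direction and side of the threshold. Both numbers include 17 values of Adh7, 19 of Adh1 and 18 of Crabp2, which were chosen from this contrast and add nothing about stability. Signal over background limits what can be read from the 6 untested genes.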

Other observations

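On chromosome 3 Adh7 and Adh1 stand next to each other among the coding genes in RefSeq order, and the tested neighbours did not move with either. Trmt10a, before Adh7, was at 7.47 ± 0.03 in CON and 7.68 ± 0.16 in KO (SD, n = 3 each), a change of 0.21 ± 0.11 on the log2 scale that did not pass the limma test. Adh5 and Metap1, after Adh1, changed by 0.03 ± 0.10 and 0.07 ± 0.09 and did not pass either. Adh6a and Adh6b, which lie between Adh1 and Adh4, were not on the array, and Mttp, Adh4 and Eif4e were not tested.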
